A study of Mus musculus with 4 samples.

Results

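Mast cells and basophils carry a small set of effector genes, and 8 of them are described here: Cpa3, Prss34, Mcpt8, Fcer1a, Ms4a2, Hdc, Cma1 and Tpsb2. They are 8 of the 32285 genes in the deposited matrices. They were chosen by name, with their measured levels in these same libraries in view. Their differences between libraries are therefore a description and carry no test.

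The data came from bone marrow of transplanted mice, 10 weeks after transplantation, sorted on CD45.2, a surface antigen that can mark donor-derived cells in a transplant. The assay was the 10x Genomics 5′ v2 single-cell kit. There was 1 library each of control Kit+ cells, Kit+ cells with Mll3/4 deleted, Kit+ cells labelled Mll3/4SI, and control B220lo cells, so no difference has a replicate check. They are called here the control, deleted, SI and B220lo libraries. MLL3 and MLL4 are histone methyltransferases that act at enhancers. The labels do not expand SI, name the Cre or other driver, or say how many mice entered each library. Kit is the receptor for stem cell factor and stays on mast cells and their progenitors, whereas most mature basophils carry little of it, so the Kit sort can set the share of either cell.

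After filtering, 11051 control, 13747 deleted, 11501 SI and 15380 B220lo cells were kept, 51679 of 56502 barcodes, with median depths of 11594, 6507, 11969 and 3246 UMIs (unique molecular identifiers, each a counted transcript molecule). Kit was detected in 84.1% to 86.8% of the cells of the 3 Kit+ libraries and in 3.65% of B220lo cells. Kmt2c, which encodes MLL3, stood at 58.1, 51.8 and 62.7 CPM (UMIs of a gene per 1000000 UMIs of the same cells) in the control, deleted and SI libraries, and Kmt2d, which encodes MLL4, at 24.0, 20.1 and 20.7 CPM; a 5′ count does not resolve which exons a transcript holds, so it checks neither label. Of Y-linked transcripts the deleted library held 148 CPM and the others at most 0.570 CPM, so sex and genotype cannot be told apart there. B-lineage cells, taken as cells with at least 3 Cd79a UMIs, made up 91.6% of the deleted library, 0.425% of the control and 0.243% of the SI library. Each pair of libraries shared between 214 and 345 barcodes.

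Mast cells and basophils bind IgE through the high-affinity receptor FcεRI, and antigen that links the bound IgE makes them empty their granules. Those granules hold histamine, proteoglycans and proteases, and the protease set differs between the cell types: chymases, tryptases and carboxypeptidase A3 are typical of mast cells, whereas Mcpt8 and Prss34 are typical of mouse basophils. In bone marrow several of these genes are already transcribed in progenitors, Cpa3 and Hdc among them.

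By role, the set holds 2 chains of the IgE receptor, 5 granule proteases and 1 enzyme of histamine synthesis. Fcer1a (chromosome 1, 173221284 to 173227214, minus strand, GRCm38) encodes the chain that binds IgE, and Ms4a2 (chromosome 19, 11615523 to 11623719, minus strand) the β chain that amplifies its signal. Cpa3 (chromosome 3, 20215620 to 20242181, minus strand) encodes carboxypeptidase A3. Cma1 (chromosome 14, 55941451 to 55944675, minus strand) encodes a chymase. Tpsb2 (chromosome 17, 25366305 to 25369098, plus strand) encodes a tryptase. Its neighbour Tpsab1, also a tryptase gene, was listed at 0 UMIs in the 3 Kit+ libraries. Whether reads were shared between these 2 genes was not tested. Mcpt8 (chromosome 14, 56082166 to 56085273, minus strand) and Prss34 (chromosome 17, 25298394 to 25300165, plus strand) encode the basophil serine proteases. Hdc (chromosome 2, 126593667 to 126619299, minus strand) encodes histidine decarboxylase, which makes histamine.

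Promoter sequences from RefSeq (GRCm38.p6) were found for 7 of the 8 genes, and Tpsb2 was not among them. The 250 bases before the start are shown for the receptor chains, which were higher in the SI library, and for the basophil proteases, which were not or were lower. Capitals mark motifs found by a letter search on both strands, and no matches overlapped. The GATA motif was searched as AGATAA and also as AGATAG, with the further forms TGATAA and then TGATAG. The E-box was searched as CACGTG and also as CATGTG. The C/EBP motif was searched as TTGCNNAA, the STAT motif as TTCNNNGAA and the RUNX motif as TGTGGT.
Fcer1a, chr1:173227230-173227479, minus strand: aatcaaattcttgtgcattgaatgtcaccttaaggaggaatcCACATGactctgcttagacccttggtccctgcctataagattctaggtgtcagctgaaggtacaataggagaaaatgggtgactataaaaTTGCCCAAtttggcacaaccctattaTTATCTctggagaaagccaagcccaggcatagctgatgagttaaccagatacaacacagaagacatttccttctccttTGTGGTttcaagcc
Ms4a2, chr19:11623720-11623969, minus strand: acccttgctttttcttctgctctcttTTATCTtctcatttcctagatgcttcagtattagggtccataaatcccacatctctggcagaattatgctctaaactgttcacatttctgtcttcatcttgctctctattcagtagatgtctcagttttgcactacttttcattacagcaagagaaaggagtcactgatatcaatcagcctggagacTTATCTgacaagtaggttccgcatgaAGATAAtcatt
Prss34, chr17:25298144-25298393, plus strand: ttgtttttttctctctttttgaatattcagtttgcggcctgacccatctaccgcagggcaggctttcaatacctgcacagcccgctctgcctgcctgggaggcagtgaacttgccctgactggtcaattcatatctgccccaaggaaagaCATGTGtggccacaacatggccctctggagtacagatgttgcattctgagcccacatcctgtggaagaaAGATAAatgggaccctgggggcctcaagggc
Mcpt8, chr14:56085198-56085447, minus strand: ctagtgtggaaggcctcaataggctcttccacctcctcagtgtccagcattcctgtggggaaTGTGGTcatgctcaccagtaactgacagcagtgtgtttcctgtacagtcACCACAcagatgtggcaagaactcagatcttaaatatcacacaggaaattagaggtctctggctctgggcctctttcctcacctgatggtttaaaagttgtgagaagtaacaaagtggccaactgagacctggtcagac
Positions of matches are counted back from the start to the first base of the match. The receptor chain promoters both held GATA letters, at 92 bases for Fcer1a and at 224, 37 and 11 bases for Ms4a2. Prss34 held them at 31 bases, and Mcpt8 held none in this window but RUNX letters at 188 and 139 bases. The starts are those of RefSeq and can differ from the gene limits given above. By those limits the Mcpt8 window reaches into the gene, and the Hdc window, not shown, lies wholly inside it. Matches and their absence there depend on the start used. Over the 7 promoters, GATA letters were in 6, against 26.5% of 32851 mouse promoters of the same length. RUNX letters were in 3, against 14.0%, E-box letters in 2, against 17.6%, C/EBP letters in 1, that of Fcer1a, against 9.56%, and STAT letters in 0, against 7.02%. A letter match is a description of the sequence and no evidence of binding.

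The SI library held more transcripts of the IgE receptor, Cpa3 and Hdc than the control library, held Mcpt8 at a like level and held less Prss34. The deleted library held fewer transcripts than the control of 6 of the 8 genes. Levels are given over all kept cells as CPM, and ratios carry 95% exact intervals that cover counting error only.

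Fcer1a stood at 8.09 CPM in the control library (1129 UMIs), 0.404 CPM in the deleted (45 UMIs), 246 CPM in the SI (37076 UMIs) and 7.95 CPM in the B220lo library. The SI library was the only one far above the others. Its CPM was 30.4-fold that of control (28.6 to 32.2), and the deleted library was 20.02-fold lower than control (14.9 to 27.6). A single deleted cell held 20 of the 45 UMIs, and without it the deleted level was 0.225 CPM. Ms4a2 stood at 10.8 CPM in control cells, at 0.880 in deleted cells, at 71.5 in SI cells and at 3.17 in B220lo cells. The order of the 3 Kit+ libraries was that of Fcer1a, with a smaller SI difference: 6.62-fold above control (6.27 to 6.99), while the deleted library was 12.3-fold lower (10.0 to 15.2).

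Cpa3 stood at 94.9 CPM in control cells, at 5.01 in deleted cells, at 646 in SI cells and at 20.3 in B220lo cells. The SI level was 6.81-fold that of control (6.69 to 6.93), and the deleted level was 18.9-fold lower (17.4 to 20.6). The other mast cell proteases were counted sparsely. Cma1 stood at 0.366 CPM in control (51 UMIs in 19 cells), 0.386 in the deleted (43 UMIs in 3 cells), 2.60 in the SI (392 UMIs in 54 cells) and 0.894 in the B220lo library (69 UMIs in 49 cells). Its SI level was 7.11-fold that of control (5.30 to 9.71), with 87 of the 392 SI UMIs in 1 cell, and its deleted level was 1.06-fold that of control (0.688 to 1.62). Tpsb2 was counted 4 times in control, 13 times in the deleted library, all in 1 cell, 40 times in the SI and 0 times in the B220lo library. That single deleted cell held UMIs of 7 of the 8 genes.

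The basophil proteases differed from the rest. Mcpt8 stood at 17.1 CPM in control cells, at 1.64 in deleted cells, at 21.9 in SI cells and at 10.4 in B220lo cells. Control and SI were within 1.28-fold (1.21 to 1.34), and the deleted library was 10.5-fold below control (9.01 to 12.3). Prss34 stood at 7.56 CPM in the control library (1054 UMIs), at 0 in deleted cells, at 0.656 in SI cells (99 UMIs) and at 2.95 in B220lo cells (228 UMIs in 2 cells). The SI level was 11.5-fold lower than control (9.37 to 14.3), and the deleted level at least 280-fold lower, with a floor of 3 counts in the deleted library. A single control cell of 5689 UMIs held 519 of the 1054 Prss34 UMIs and also the most Mcpt8, 100 UMIs. Without it control Prss34 stood at 3.84 CPM and the deleted level was at least 142-fold lower. Both bounds count UMIs as independent, whereas 50% of the control UMIs lay in 2 of the 44 control cells with Prss34. They do not bound the difference in the share of cells. In the SI library 28 of the 99 UMIs lay in 1 cell; without the leading cell of each library the log2 ratio of SI over control moved from -2.37 to -1.72.

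Hdc stood at 73.6 CPM in control cells, at 17.7 in deleted cells, at 170 in SI cells and at 11.3 in B220lo cells. The SI level was 2.31-fold that of control (2.26 to 2.36), and the deleted level was 4.15-fold lower (3.95 to 4.36). Among the 6 genes past the fold in the deleted library, Hdc had the smallest difference.

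**Figure D1:**
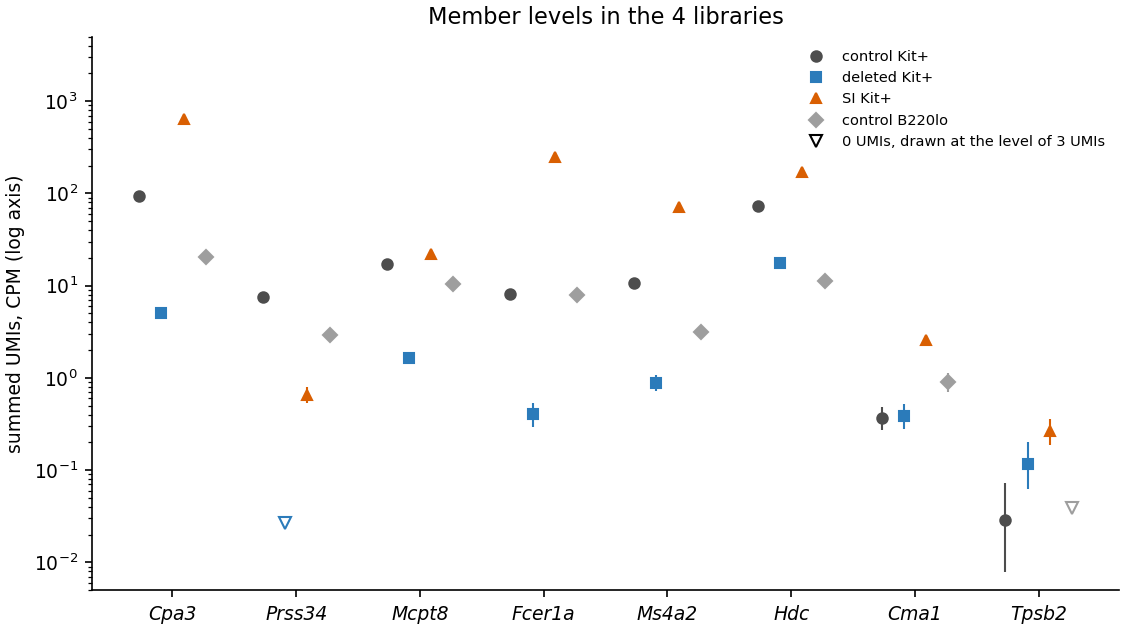
Level in CPM (log axis) for the 8 genes in the 4 libraries, with 95% exact Poisson intervals; an open triangle marks a gene at 0 UMIs, drawn at the level of 3 UMIs. The SI library is highest for every gene but Prss34, with Mcpt8 near its control level, and the control library is highest for Prss34.

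A gene was counted as higher or lower where its log2 ratio, with 1 CPM added to both levels, was at least 1 or at most -1 and the higher library had at least 100 UMIs. In the SI library 7 of the 8 genes had enough UMIs, 5 were higher (Fcer1a, Cpa3, Ms4a2, Cma1 and Hdc) and 1 was lower (Prss34); of all 13221 genes with enough UMIs, 2.3% were higher and 0.983% lower. The median log2 ratio of the 8 genes was 1.30, and that of all those genes 0.039. In the deleted library 6 had enough UMIs, 0 were higher and all 6 were lower; of all 13758 genes, 13.7% were higher and 10.1% lower. The median was -2.67 for the 8 genes and -0.0056 for all genes. Since the choice of the 8 genes used these contrasts, nothing is read from the counts. The lowest of the SI genes counted as higher was Hdc, with a log2 ratio of 1.20, and the only gene with enough UMIs below the limit in size was Mcpt8, at 0.33. With 10 CPM added in place of 1, Cma1 (0.28) and Prss34 (-0.72) were no longer past the limit in the SI library, nor were Prss34 (-0.81), Fcer1a (-0.80) and Ms4a2 (-0.94) in the deleted library; a gene under 10 CPM in both libraries, as all of these but Ms4a2 were, cannot pass the limit with that value added.

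The deleted values were different once B-lineage cells were left out. Among cells with fewer than 3 Cd79a UMIs, 1156 in the deleted and 11004 in the control library, the median log2 ratio of the 8 genes was -0.51, and 3 of the 6 with enough UMIs were lower; 2.62% of all genes were. Cpa3 stood at 38.2 CPM in these deleted cells and 95.1 CPM in control, 2.49-fold lower (2.28 to 2.73). Fcer1a stood at 3.36 against 8.11 CPM, 2.41-fold lower (1.79 to 3.33), and at 1.87 CPM without the deleted cell with 20 UMIs. Prss34 was at 0 against 7.57 CPM, at least 33.8-fold lower by UMIs, or at least 17.2-fold without the control cell with 519 UMIs. These bounds count UMIs as independent, whereas Prss34 lay in 44 of the 11051 control cells. They are thus no bound on the share of cells with the gene. These 3 genes were lower past the fold. Mcpt8 (12.1 against 17.2 CPM) and Ms4a2 (7.097 against 10.8 CPM) did not. Hdc turned to the other direction, at 97.1 against 73.7 CPM, 1.32-fold higher (1.24 to 1.40). The genes with too few UMIs to be counted were also higher in these deleted cells: Cma1 at 3.21 against 0.366 CPM, 8.77-fold (5.70 to 13.4), on 43 UMIs in 3 cells and 51 UMIs, or 1.79 CPM without the deleted cell with 19 of them, and Tpsb2 on 13 UMIs of 1 cell against 4. Within the 12591 B-lineage cells of the deleted library Hdc was in 418 cells (3.32%) at 6.89 CPM, Cpa3 was in 15 cells at 0.480 CPM and Fcer1a in 0 cells.

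The number of cells that held each gene and the number of UMIs per cell both differed. Cpa3 was in 24.7% of control cells, 0.589% of deleted cells and 61.0% of SI cells. Fcer1a was in 4.06%, 0.08002% and 29.8%, and Ms4a2 in 4.71%, 0.204% and 17.9%. Hdc was in 33.8%, 5.72% and 42.5%. These 4 genes were in more cells of the SI than of the control library. Mcpt8 was in 11.7% of control cells, in 0.757% of deleted cells and in 11.2% of SI cells. Prss34 was in 44 control cells (0.398%) and 24 SI cells (0.209%), and in 0 of 13747 deleted cells, which, taken as 3 counts, allows a share of cells with a UMI of up to 0.0218% at the depth of that library. The mean count in cells with at least 1 UMI was 2.51 in control and 10.8 in SI cells for Fcer1a, 4.86 and 13.9 for Cpa3, 2.89 and 5.25 for Ms4a2, and 2.75 and 5.24 for Hdc. Mcpt8 had 1.84 and 2.55 UMIs per positive cell. The counts were unevenly spread: 50% of the Mcpt8 UMIs lay in 239 control cells but in 116 SI cells, and 50% of the Fcer1a UMIs in 74 control and 490 SI cells.

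Depth differed between the Kit+ libraries, so each cell was also thinned to 2000 UMIs, leaving out 199 control, 455 deleted and 125 SI cells below that depth. Cpa3 was then in 12.2% of control cells, in 0.248% of deleted cells and in 42.3% of SI cells. Fcer1a was in 1.60%, 0.0301% and 19.2%. Ms4a2 was in 2.07%, 0.0828% and 9.12%, and Hdc in 11.2%, 1.88% and 19.3%. Mcpt8 was in 2.79% of control and 2.91% of SI cells at this depth. The order of the libraries was thus the same for Cpa3, Fcer1a, Ms4a2 and Hdc at equal depth.

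**Figure D2:**
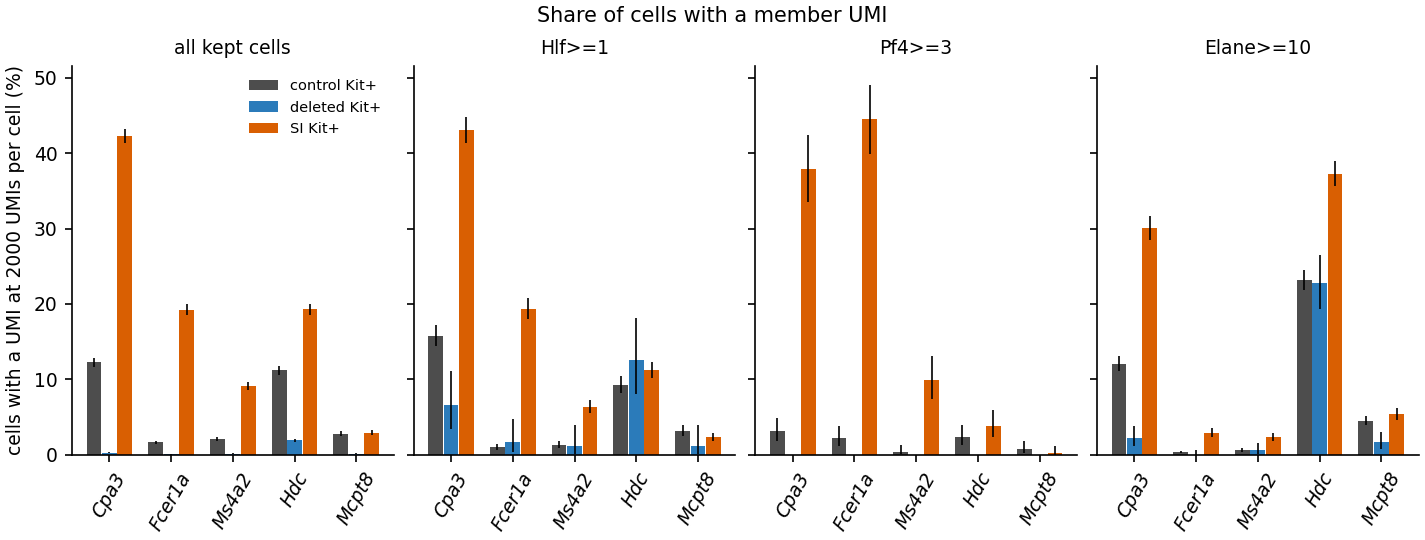
Share of cells with at least 1 UMI of 5 genes after each cell was thinned to 2000 UMIs, in all kept cells and in 3 groups of cells taken by raw UMIs of Hlf, Pf4 and Elane; bars start at 0 and lines are 95% exact binomial intervals. Fcer1a reaches 44.5% of SI cells with at least 3 Pf4 UMIs, against 2.23% of control cells, and Hdc is in 23.2%, 22.7% and 37.3% of control, deleted and SI cells with at least 10 Elane UMIs; the deleted library has 13 cells in the Pf4 panel and no bar there.

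The genes were then followed in 3 groups of cells set by genes outside the list. Hlf is a transcription factor gene of hematopoietic stem cells, Pf4 encodes platelet factor 4 of megakaryocytes, and Elane encodes neutrophil elastase. The groups were cells with at least 1 Hlf UMI, at least 3 Pf4 UMIs or at least 10 Elane UMIs; they overlap, and each is a range of counts and not a cell type. Hlf marked 2493 control, 186 deleted and 3238 SI cells, Pf4 590, 13 and 472 cells, and Elane 4223, 554 and 3345 cells.

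In cells with Hlf, Fcer1a stood at 5.94 CPM in control, 3.28 in deleted and 223 in SI cells. The SI level was 37.6-fold that of control (32.4 to 44.0). Cpa3 stood at 144, 81.1 and 623 CPM, which is 4.34-fold higher in SI (4.197 to 4.48) and 1.77-fold lower in deleted cells (1.56 to 2.02). Ms4a2 stood at 11.6, 4.92 and 48.8 CPM. These 3 genes were higher past the fold in the SI library, 3 of the 6 with enough UMIs, against 1.6% of all genes counted as higher. Hdc, at 74.0, 79.1 and 107 CPM, and Mcpt8, at 22.6, 14.1 and 15.7 CPM, were not. Prss34 was counted 101 times in control, 0 times in deleted and 4 times in SI cells. In the SI library it was the 1 gene of the 6 that was lower, against 1.16% of all genes. Its SI log2 ratio, -2.02, ranged from -2.58 to -0.11 over the alternatives. In the deleted library 2 of 6 genes were lower, Prss34 and Ms4a2, against 3.86% of all genes. Control Prss34 lay in only 12 of the 2493 cells with Hlf, so no loss is read from its 0 in 186 deleted cells. Its log2 ratio, -2.15, ranged from -2.73 to -0.15 over the alternatives. The log2 ratio of Ms4a2, on 15 deleted UMIs, went from -1.09 to 0.42 without rich cells, those with at least 3 of the 8 genes at 2 or more UMIs each; these are cut on the 8 genes themselves. Thinned to 2000 UMIs, Cpa3 was in 15.8%, 6.52% and 43.1% of these cells and Fcer1a in 0.968%, 1.63% and 19.3%. B-lineage markers (8 genes) summed to 952 CPM in the deleted cells with Hlf, against 43.7 CPM in control, and megakaryocyte markers to 168 CPM in the SI cells, against 356 CPM in control; their part in the result was not tested.

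In cells with Pf4 the receptor chains differed most. Fcer1a stood at 9.23 CPM in control and 619 CPM in SI cells, a ratio of 67.0 (52.4 to 87.0), and it was in 7.97% and 65.0% of the cells. Ms4a2 stood at 4.55 and 83.5 CPM, a ratio of 18.4 (12.9 to 27.2). Cpa3 stood at 38.1 and 508 CPM, a ratio of 13.4 (11.8 to 15.2). These 3 of the 4 genes with enough UMIs were past the fold, against 1.62% of all genes. Hdc stood at 22.9 and 42.1 CPM, and Mcpt8 at 4.40 and 2.12 CPM. The megakaryocyte markers (7 genes, all detected in both libraries) summed to 3580 CPM in these control cells and 1723 CPM in these SI cells, and their part in the result was not tested. Of the 13 deleted cells, 2 held a UMI of Fcer1a and none held a UMI of Cpa3, Ms4a2, Hdc, Mcpt8 or Prss34.

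In cells with Elane the enzyme of histamine synthesis was prominent. Hdc stood at 143 CPM in control, 138 in deleted and 274 in SI cells and was in 71.4%, 71.7% and 82.0% of them. Control and deleted cells did not differ beyond counting error (ratio 0.961, 0.910 to 1.02), while SI cells had 1.91-fold the control level (1.86 to 1.96). Cpa3 separated all 3 libraries, at 102, 11.8 and 358 CPM: it was 8.70-fold lower in deleted cells (7.31 to 10.4) and 3.50-fold higher in SI cells (3.40 to 3.597). Fcer1a stood at 2.19, 0 and 43.7 CPM, at least 8.02-fold lower by UMIs in deleted and 19.9-fold higher in SI cells (16.8 to 23.9). Its control UMIs lay in 55 of 4223 cells. Ms4a2 stood at 4.67, 1.73 and 18.5 CPM. In the SI library 3 of 5 genes were higher (Cpa3, Fcer1a and Ms4a2), against 1.47% of all genes, and in the deleted library the same 3 of 5 were lower, against 2.39%. Without rich cells, which are cut on these genes, the log2 ratio of Fcer1a in the SI library went from 3.81 to 1.59. That of Ms4a2 in the SI library was 0.92, short of the fold. In the deleted library too few control UMIs of Fcer1a and Ms4a2 were left for a reading. Mcpt8 was at 24.4, 13.7 and 30.8 CPM and past the fold in neither. B-lineage markers (8 genes) summed to 888 CPM in these deleted cells and 55.4 and 52.9 CPM in these control and SI cells, and their part in the result was not tested.

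The values near the limits of the groups were as follows. Fcer1a in SI cells stood at 636 CPM at 2 Pf4 UMIs and 722 CPM at 3, and in control cells at 37.5 and 15.2 CPM. Cpa3 stood at 655 and 678 CPM in SI cells with 0 and 1 Hlf UMI, and at 82.0 and 151 CPM in control cells. At 9 and 10 Elane UMIs Cpa3 stood at 1063 and 725 CPM in SI cells and at 289 and 585 CPM in control cells.

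Cells outside all 3 groups held a large part of the difference. There were 4641 such control and 5145 such SI cells. Fcer1a stood at 14.5 and 378 CPM in them, Cpa3 at 81.4 and 896 CPM, Ms4a2 at 17.5 and 124 CPM and Hdc at 17.3 and 142 CPM. The Hdc ratio of 8.22 (7.69 to 8.80) exceeded its ratio in the 3 groups. Of all genes with enough UMIs, 6.12% were higher and 1.52% lower in these cells. The part of cell makeup in these ratios was not tested. Prss34 stood at 16.5 CPM in control and 0.496 CPM in SI cells, and Mcpt8 at 10.7 and 21.3 CPM. The control cell with 519 of the 1054 Prss34 UMIs was among these cells, so the control level of Prss34 here depends on it.

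**Figure D3:**
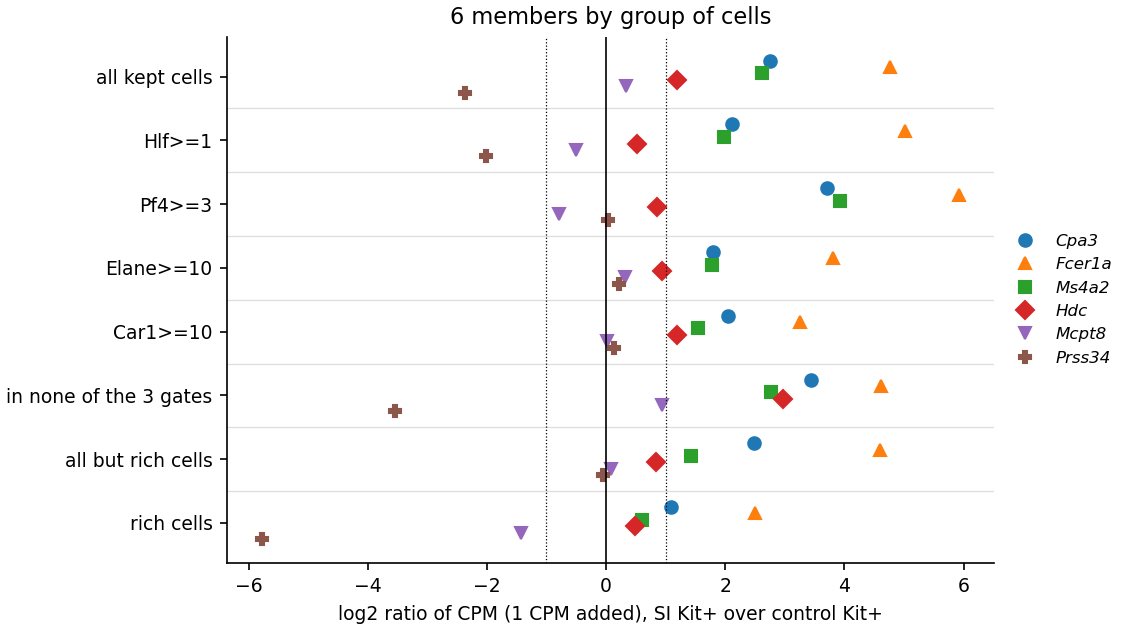
Log2 ratio of SI over control CPM, with 1 CPM added to both, for 6 genes in 8 groups of cells; dotted lines mark a ratio of 2 in either direction. Fcer1a has the highest ratio in every group of cells, Cpa3 is past the upper line in all 8, and Mcpt8 and Prss34 lie at or below 1.

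Mature erythroid cells should lack these genes, so erythroid cells were taken for comparison; whether their counts come from free RNA, mixed droplets or transcription in Kit+ erythroid progenitors was not tested. Cells with at least 10 Car1 UMIs (carbonic anhydrase 1, an erythroid gene) numbered 2288 in the control and 869 in the SI library, with median depths of 17161.5 and 18354 UMIs. Cpa3 stood at 14.8 CPM in the control and 64.1 CPM in the SI erythroid cells, 15.6% and 9.92% of the level of the whole library. Fcer1a stood at 1.30 and 20.9 CPM, 16.1% and 8.53% of the library's level. Ms4a2 stood at 2.60 and 9.55 CPM and Hdc at 6.43 and 15.9 CPM. All 4 were past the fold here too, 4 of the 4 genes with enough UMIs, against 0.69% of all genes. Cpa3 was in 14.7% and 32.6% of these cells and Fcer1a in 1.53% and 7.59%. The shares of Fcer1a in cells with Hlf (3.81% and 31.3%) and with Pf4 (7.97% and 65.0%) were above those in erythroid cells in both libraries, whereas its control share in cells with Elane, 1.30%, was not. Cma1, at 0.241 and 4.42 CPM, was no lower in SI erythroid cells than in the whole SI library (2.60 CPM), so its level in the library is not told apart from that in erythroid cells. The levels of Cpa3, Fcer1a, Ms4a2 and Hdc in erythroid cells were thus themselves higher in the SI than in the control library.

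The genes were next followed together within cells. At least 1 of the 8 was detected in 50.8% of control cells, in 6.24% of deleted cells and in 79.5% of SI cells, and at least 2 in 19.6%, 0.902% and 50.6%. At 2000 UMIs per cell, at least 2 were in 4.79%, 0.173% and 25.7%. Cells with Cpa3 and Fcer1a but neither Mcpt8 nor Prss34 numbered 241 among control cells (2.18%), 3 among deleted cells and 2704 among SI cells (23.5%). Cells with Mcpt8 or Prss34 numbered 1317 in control (11.9%) and 1303 in the SI library (11.3%). Most of these protease cells held Mcpt8 at a low count, with a median of 1 UMI in both libraries. At 3 or more UMIs Mcpt8 was in 152 control cells (1.38%) and 225 SI cells (1.96%), and Prss34 in 18 and 6. In the erythroid cells Mcpt8 stood at 1.06 CPM in control and 1.07 CPM in SI.

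Of cells with Fcer1a, 70.4% also held Cpa3 in control (65.9% to 74.6%) and 84.3% in the SI library (83.0% to 85.5%). The reverse share differed more: of cells with Cpa3, 11.6% held Fcer1a in control and 41.2% in the SI library. The receptor chains shared cells as well. Of Ms4a2 cells, 42.6% in control and 73.1% in the SI library held Fcer1a, while of Fcer1a cells 49.4% and 43.9% held Ms4a2. Mcpt8 cells held Hdc in 63.3% and 67.3% and Cpa3 in 44.1% and 69.0%. Of Mcpt8 cells 5.48% held Fcer1a in control and 16.3% in the SI library, whereas the share of Fcer1a cells with Mcpt8 was 15.8% and 6.17%. Of the Prss34 cells, 23 of 44 in control and 14 of 24 in the SI library held Mcpt8. These shares move with the number of cells that hold each gene and with depth; at 2000 UMIs per cell, 87 of 174 control cells with Fcer1a held Cpa3, and 73.5% of those of the SI library did. In the Pf4 group, 222 of the 307 SI cells with Fcer1a held Cpa3 (72.3%) and 102 held Ms4a2 (33.2%), against 14 (29.8%) and 8 (17.0%) of 47 control cells.

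**Figure D4:**
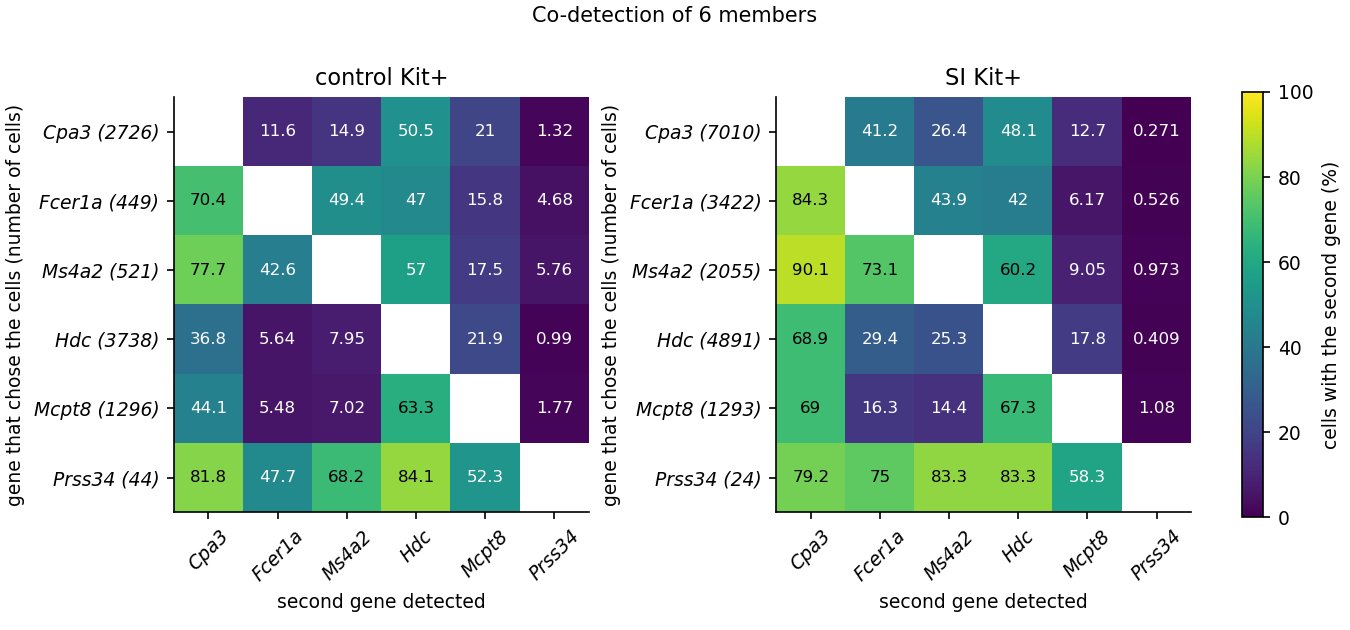
Percent of cells with the gene of the row (number of cells in brackets) that also held a UMI of the gene of the column, in the control (left) and SI (right) libraries. The share of Cpa3 cells with Fcer1a is 11.6% and 41.2%, and that of Fcer1a cells with Mcpt8 15.8% and 6.17%.

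Cells rich in these transcripts, taken as cells with at least 3 of the 8 genes at 2 or more UMIs each, numbered 295 among control cells (2.67%), 13 among deleted cells (0.0946%), 1623 among SI cells (14.1%) and 25 among B220lo cells (0.163%). This is a range of counts cut on the genes themselves and not a cell type: 732 control and 2584 SI cells lay 1 gene below the limit, and 197 and 1037 lay exactly at it. Rich cells held 27.7% of the UMIs of the 8 genes in the control and 53.1% in the SI library.

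Levels of the genes that define rich cells differed between the rich cells of the 2 libraries. Since the cells are cut on these same genes, the levels and shares below depend on that cut. The part of the cut in each difference was not tested, so no difference in the kind of cell is read from them. Prss34 stood at 252 CPM in the 295 control rich cells and 3.62 CPM in the 1623 SI rich cells, 69.7-fold lower (56.3 to 87.1). Without the control cell with 519 UMIs the control level was 127 CPM. Mcpt8 stood at 176 and 64.5 CPM, 2.73-fold lower in SI (2.496 to 2.98), and was in 50.8% and 18.7% of rich cells. The receptor chains went the other way. Fcer1a stood at 167 and 949 CPM, 5.68-fold higher (5.27 to 6.14), and was in 54.2% and 84.3% of rich cells. Cpa3 stood at 846 and 1806 CPM, 2.13-fold higher (2.06 to 2.21). Ms4a2 (237 and 361 CPM) and Hdc (297 and 415 CPM) were higher in SI by less than the 2-fold limit. Cma1 (9.67 and 13.1 CPM) did not differ beyond counting error (ratio 1.36, 0.977 to 1.94). Of the 7 genes with enough UMIs, 2 were higher and 2 lower, beside 3.31% and 1.32% of all genes; the cells were cut on these genes, so nothing is read from the counts. With 4 genes in place of 3 in the definition of rich cells, the log2 ratio of Cpa3 was 0.91, short of the fold. The 13 deleted rich cells held 137 UMIs of Cpa3, 66 of Ms4a2, 48 of Hdc, 30 of Cma1, 27 of Fcer1a, 16 of Mcpt8, 13 of Tpsb2 and 0 of Prss34.

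Markers of other cell types also differed in rich cells. The eosinophil list (7 genes) summed to 219 CPM in control and 19.7 CPM in SI rich cells, with Ear1, Ear2 and Ear6 at 0 in control. The neutrophil and monocyte list (8 genes) summed to 15647 and 11716 CPM. The T and NK list (5 genes) summed to 561 CPM with Cd3e, Cd3d and Il2rb at 0 in control, and to 83.0 CPM in SI. The control sum came from the remaining genes, Nkg7 and Klrb1c, whose separate levels are not given here. The B-lineage list (8 genes) summed to 38.9 and 39.1 CPM, with Pax5 at 0 in both. Whether rich cells held these other cell types, and their part in the differences, was not tested.

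Leaving rich cells out kept the direction of the receptor chains and Cpa3 in the SI library. Rich cells are cut on these same genes and held 61.2% of the control and 65.9% of the SI Fcer1a UMIs. The kept direction is therefore a description and no separate support. Fcer1a then stood at 101 against 3.24 CPM, 31.2-fold higher (28.4 to 34.4), Cpa3 at 408 against 72.0 CPM, 5.67-fold higher (5.55 to 5.79), and Ms4a2 at 12.1 against 3.91 CPM, 3.10-fold higher (2.80 to 3.43). Prss34 had 6 SI and 12 control UMIs left, since rich cells are cut on the 8 genes and held 98.9% of its control and 93.9% of its SI UMIs, so nothing is read from its ratio there. Hdc, at 120 against 66.8 CPM, was 1.79-fold higher and no longer past the fold, and the median log2 ratio of the 8 genes was 0.62. In cells with Pf4 but without rich cells Fcer1a stood at 466 against 8.19 CPM, and Hdc turned to the other direction, at 10.9 against 20.3 CPM. In cells with Elane the Fcer1a ratio was 19.9 with them and 6.69 without, at 3.66 against 0.548 CPM.

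Other genes of the same roles mostly did not follow the 8 in the SI library. Members are left out of these lists, and the first number is that of genes with at least 100 UMIs in the higher library. Of 12 genes of IgE receptor signalling 1 was higher and 0 lower (median log2 ratio 0.29). Over all genes 2.3% were higher and 0.983% lower. The higher gene was Lat2, an adaptor of mast and B cells, at 95.9 against 40.0 CPM, while its relative Lat, the adaptor of T cells and mast cells, stood at 14.6 against 27.8 CPM, short of the fold. Fcer1g, the shared signalling chain of the receptor, stood at 296 against 187 CPM. Of 2 granule proteases 1 was higher: granzyme B (Gzmb), at 18.4 against 5.75 CPM, while cathepsin G (Ctsg) stood at 2368 against 2107 CPM. Of 6 genes of amines and granule storage 0 passed in either direction; Slc18a2, the transporter that loads amines into vesicles, stood at 36.0 against 24.6 CPM. Of 6 genes of lipid mediators 0 passed. Of 6 cytokine genes 1 was higher, Il6, at 4.94 against 0.710 CPM. Of 11 receptor genes 1 was higher, Csf2rb2, the mouse β chain specific to IL-3, at 14.0 against 2.62 CPM, and its relative Csf2rb stood at 54.3 against 28.9 CPM. Of 12 transcription factor genes 0 passed: Gata2 stood at 103 against 78.4 CPM, Gata1 at 43.6 against 82.9 CPM and Mitf at 17.2 against 15.1 CPM. The median log2 ratio was 0.85 for the 2 proteases, 0.49 for receptors, 0.42 for cytokines and 0.14 for lipid mediators. It was 0.092 for storage genes and 0.026 for transcription factors, beside 0.039 for all genes.

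Inside rich cells 2 of the 46 listed genes with enough UMIs were higher in the SI library and 6 were lower. Over all genes in rich cells 3.31% were higher and 1.32% lower. Fyn, a Src family kinase, stood at 74.6 against 34.3 CPM and Csf2rb2 at 40.4 against 17.6 CPM, both higher in SI. Lat stood at 8.05 against 35.5 CPM and Fcgr3, a low-affinity IgG receptor gene, at 51.6 against 159 CPM, both lower. Alox5, which encodes 5-lipoxygenase of leukotriene synthesis, was lower, at 17.6 against 82.4 CPM. The transcription factor genes Gata1 (26.0 against 77.8 CPM) and Cebpb (19.3 against 64.3 CPM) were lower, as was the cytokine gene Csf1 (11.4 against 34.3 CPM). These lie in cells cut on the 8 genes and are values of those cells only. With rich cells defined by 4 genes, Fyn (log2 ratio 0.94) and Csf2rb2 (0.84) were no longer past the fold, as with 10 CPM added (0.93 and 0.87), and with rich cells defined by 2 genes Csf1 (-0.87) was not.

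**Figure D5:**
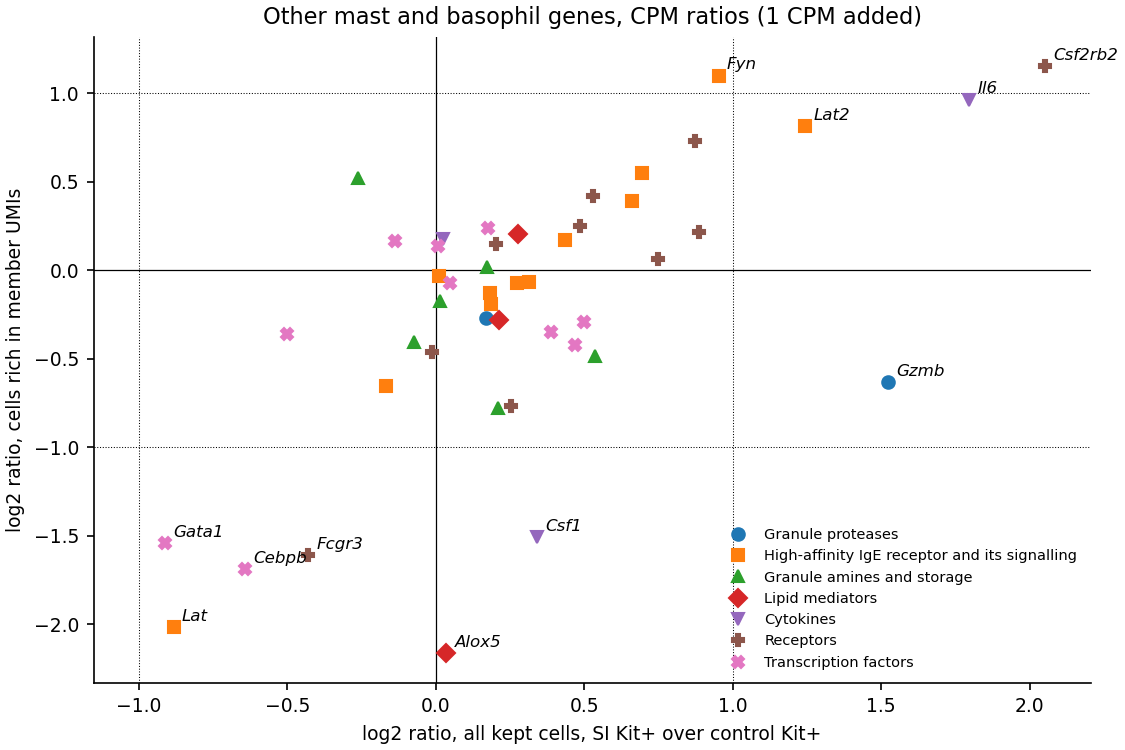
Log2 ratios of SI over control (1 CPM added) for the listed genes with a value in both settings, over all kept cells (horizontal) and in rich cells (vertical); shapes mark the lists and dotted lines a ratio of 2. Csf2rb2 is past the upper line on both axes, while Lat, Fcgr3, Cebpb, Gata1, Alox5 and Csf1 are past the lower line in rich cells.

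In the deleted library, whose cells were mostly of the B lineage, 6 of 12 signalling genes were lower and 1 higher (Fyn, 91.6 against 25.6 CPM). Lower were also 2 of 2 proteases, 3 of 6 storage genes, 5 of 6 lipid mediator genes, 7 of 10 receptor genes and 7 of 12 transcription factor genes, among them Gata2 (5.61 against 78.4 CPM) and Gata1 (4.48 against 82.9 CPM). Of 5 cytokine genes 1 was lower (Ccl4) and 1 higher (Csf1, 25.8 against 4.55 CPM). Over all genes 10.1% were lower and 13.7% higher in this library.

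The genes whose counts were most alike to each member across the 11051 control cells were taken as the 3 with the highest correlation of log-normalized counts, a description over cells that share a library and its depth. For Hdc they were Ms4a3 (r = 0.62), Elane (0.56) and Ctsg (0.55), genes of neutrophil and monocyte progenitors. For Ms4a2 they were Lmo4 (0.44), Csrp3 (0.40) and Alox5 (0.40), and for Fcer1a the same 3 at 0.35, 0.34 and 0.34. In SI cells the Fcer1a values were 0.22, 0.13 and 0.04. For Cpa3 they were Lpcat2, Ikzf2 and Slc7a8 (0.42, 0.41 and 0.36), and these held in SI cells at 0.43, 0.43 and 0.36. Mcpt8 was led by Ctsg (0.26), Prss34 by Cyp11a1 (0.32), and Cma1 by Gzmb (0.52), while Tpsb2, with 4 UMIs, allows no reading. In SI cells the values for Mcpt8, Prss34 and Cma1 were 0.22, 0.10 and 0.39. Prss34 and Cma1 were in only 44 and 19 control cells, so nothing is read from their values either. Between members, Fcer1a and Ms4a2 had an r of 0.535 in control and 0.530 in SI cells, and Fcer1a and Mcpt8 0.140 and -0.056.

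In the B220lo library, a sort that should hold few such cells, most of the genes were concentrated in few cells. Prss34, Mcpt8, Ms4a2, Fcer1a and Cpa3 had 50% of their UMIs in 1, 3, 6, 7 and 13 cells. Hdc and Cma1 were more spread, with 50% in 47 of 290 and in 15 of 49 cells. The most Mcpt8 in a cell was 243 of 802 UMIs, and 184 of 228 Prss34 UMIs lay in 1 cell. Serpina3i, a serine protease inhibitor gene, was detected in 1205 of the 1623 SI rich cells and in 0 of the 295 control rich cells. It was in none of the gene lists, and its share in the other SI cells is not given here. A UMI of it was held by 79 B220lo cells. In those 79 cells Cpa3 stood at 704 CPM, Fcer1a at 284 CPM, Hdc at 190 CPM and Ms4a2 at 71.4 CPM, beside 646, 246, 170 and 71.5 CPM in the whole SI library. These levels are pooled, and their spread over the 79 cells is not given here. Only 7 of the 79 were rich cells, and Cma1 and Tpsb2 had 0 UMIs in the 79 cells. Prss34 stood at 162 CPM in them and Mcpt8 at 10.6 CPM, beside 0.656 and 21.9 CPM in the SI library. The origin of these cells was not tested. In the other 15301 B220lo cells Cpa3, Fcer1a, Hdc and Ms4a2 stood at 10.1, 3.84, 8.68 and 2.16 CPM. Prss34 stood at 0.579 CPM there, and Mcpt8 at 10.4 CPM, near its level in the 79 cells. All 184 Prss34 UMIs of the 1 leading cell lay among the 79. Of the 79 cells 1 had a barcode also kept in the SI library (1.27%), as had 212 of the other 15301 cells (1.39%).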

How the data were processed

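The authors deposited raw counts, as UMIs of each gene in each barcode, made with Cell Ranger 7.1.0 on mm10, per the submitters' processing notes. Kept barcodes had at least 1000 UMIs, at least 500 genes, at most 10% mitochondrial UMIs and a Scrublet doublet score under 0.25 (scanpy 1.11.5, expected share 8%), which removed 840 control, 1168 deleted, 580 SI and 949 B220lo barcodes as doublets. UMIs were summed per library and group of cells and divided by all UMIs of those cells (CPM). Ratios had conditional exact intervals and shares Clopper-Pearson intervals, all at 95% and for counting error only; a count of 0 was bounded at 3 counts. With 1 library per group no test was made. The count step was tested on simulated libraries of independent UMIs, so that test does not cover counts gathered in few cells. All 8 members are named. Most other genes come from lists set by role or cell type, or were the genes most alike to a member. Serpina3i was in none of these lists, and its choice was not set in advance. The members, lists and limits were chosen with earlier results of these data known. Positions are from GENCODE M21 (GRCm38), which held 32235 of the 32285 gene identifiers. Alternatives changed the filter, the total, the pseudocount, the cells left out and the limits. Cell types outside these genes were not analysed here.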

Additional observations from a re-analysis of the deposited data

How the results depend on the processing

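The median log2 ratio of the 8 genes kept its sign under each setting from which it can be read, and its size depended on the setting. For the deleted library (-2.67) it was -0.51 without B-lineage cells, -0.87 with a pseudocount of 10 CPM, -3.39 with 0.1 CPM, -3.23 as a mean over cells and -2.92 without mitochondrial and ribosomal protein genes in the total. For the SI library (1.30) it was 1.43 with all deposited barcodes, 1.52 as a mean over cells, and 2.02 and 0.69 with pseudocounts of 0.1 and 10 CPM. Without the 1% of cells with the most UMIs of each gene it was -2.36 and 0.60, but that removes every cell with Prss34, Cma1 or Tpsb2 from all 3 libraries and every deleted cell with Cpa3, Mcpt8, Fcer1a or Ms4a2, so nothing is read from these values. Without rich cells, a setting chosen after seeing the data and cut on the 8 genes, it was -1.88 and 0.62, and without the 1 cell with the most UMIs of each gene, also chosen after seeing the data, -2.501 and 1.21. Without barcodes found in more than 1 library it was -2.63 and 1.34. Of 192 single-gene ratios 105 moved by no more than their counting interval and 8 changed sign; among those counted as higher or lower 1 did, Hdc in the deleted library, 0.39 without B-lineage cells. Of 160 ratios in the groups 117 moved by no more than that and 11 changed sign; among those counted as higher or lower 1 did, Ms4a2 in deleted cells with Hlf, 0.42 without rich cells. No paired analysis was possible because each group is 1 library. Depth limits Tpsb2, which had at most 40 UMIs in a library.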
